A study of Rattus norvegicus with 18 samples.

Results

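Nkx2-1, Six3, Six6, Nr5a1, Fezf1, Isl1, Sim1, Otp and Pou3f2 are transcription factor genes that pattern the hypothalamus or mark its nuclei, and their RNA was followed in the hypothalamus of 18 male Wistar rats. The genes were listed by name, and every probe whose transcript accession maps to one of them was taken, whatever its value. This gave 11 probes for 9 genes, of 45598 probes and 16665 named genes on the array. A level is the log2 intensity of a probe minus the 75th percentile of its own array over all spots that are not controls, so 0 is that percentile, and levels of different probes cannot be ordered against each other.

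Each rat gave 1 array, and the rats were 9 weeks old at collection. The control group (n = 6) was neither restrained nor given a wheel. The stress group (n = 6) underwent 3 weeks of restraint, with sessions of 1 to 1.5 h on 5 days of each week. Exercised rats (n = 6) had the same restraint and free access to a running wheel for 4 weeks, from 1 week before the restraint began. No group had the wheel without restraint, so a response to the wheel alone cannot be told apart from a response to the wheel in restrained rats. Per the labels, 1 operator dissected every hypothalamus under a microscope, and the whole piece was homogenized, so each level is an average over all nuclei in it. In such tissue, fewer cells of a type and less RNA per cell cannot be told apart.

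In the embryo, Nkx2-1 specifies the ventral hypothalamus, and Six3 and Six6 pattern the anterior forebrain and eye field. Later factors set up single nuclei. Sim1, Otp and Pou3f2 act in the lineage that makes the oxytocin, vasopressin, corticotropin-releasing hormone and thyrotropin-releasing hormone neurons of the paraventricular and supraoptic nuclei. Nr5a1 and Fezf1 belong to the ventromedial nucleus, and Isl1 to neurons of the arcuate nucleus. Many of these genes stay on in the adult, where they serve as labels of the nuclei they helped to build.

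The arrays lay on 5 slides. The file headers give the slide of each array, and the slides are grouped here into a first and a second set. All control arrays and stress arrays 1 to 4 were on the first set (slides 1 to 3). Stress arrays 5 and 6 shared the second set (slides 4 and 5) with every exercised array. The grouping follows an earlier report that the arrays of these sets separate, so the principal component below repeats that observation. Control and stress arrays never shared a slide, so slide and group cannot be told apart in that comparison. No control array lay on the second set and no exercised array on the first, so only the stress arrays, which lie on both, separate the sets from the groups. The first principal component of the tested probes with a value on every array (32.2% of variance) put the 10 arrays of the first set between -33.7 and -21.0 and the 8 of the second, stress arrays 5 and 6 included, between 24.8 and 40.7. The share of probes well above background was 63.6% to 77.7% per array, and the 75th percentile of spot intensity ran from 1963 to 2422. Peptide genes of the labelled tissue were present: 5 of 5 for the paraventricular and supraoptic nuclei, 7 of 7 for the arcuate nucleus and 3 of 3 for the lateral hypothalamus and tuberomammillary nucleus passed the filter on dim probes. The pituitary hormone genes Gh1, Prl and Tshb and the cortical genes Tbr1 and Slc17a7 did not pass it.

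Detection differed between the 9 genes. Nkx2-1, Six3, Six6, Fezf1, Isl1, the brighter of 2 Sim1 probes and both Pou3f2 probes were well above background on 18 of 18 arrays. The Otp probe was well above background on 1 control, 1 stress and 2 exercised arrays, and the second Sim1 probe (A_44_P117030) on 0 of 18. Those probes were not tested, and no difference is given for them. Nr5a1 was well above background on 3 control, 3 stress and 6 exercised arrays, so it passed the filter only through the exercised group. In all, 9 probes of 8 genes were tested.

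Nkx2-1, which also acts in thyroid and lung, had control levels with a lowest value of -1.57, a median of -1.47 and a highest value of -1.43. Its stress levels ran from -1.48 through a median of -1.40 to -1.27, and its exercised levels from -1.57 through -1.46 to -1.28. Each of the 6 stress rats exceeded the mean of the control rats, but the groups overlapped. The residual SD of Nkx2-1 between rats of a group was 0.086, higher than 42.2% of probes of like level. For their level, Six6 (0.23, higher than 17.8%), Six3 (0.15, 18.6%) and the brighter Pou3f2 probe (0.090, 24.3%) varied less. The brighter Sim1 probe and Fezf1 varied more than most probes of like level.

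Six3, a repressor of Wnt signalling in the anterior forebrain, ran from -5.29 through a median of -5.10 to -4.96 in control rats. The same gene gave -5.33, -5.11 and -4.95 in stress rats, and -5.29, -5.11 and -4.85 in exercised rats. The 3 groups covered nearly the same range. Six6, its relative in the ventral forebrain and retina, gave -6.79, -6.36 and -6.06 in control rats. In stress rats Six6 gave -6.44, -6.35 and -6.18, and in exercised rats -6.44, -6.14 and -5.90. The control rats spread widest, and the stress rats lay within their range, while the exercised rats reached above it.

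Nr5a1, the nuclear receptor that defines the ventromedial nucleus, was dim: its intensity over the 18 arrays was 4.9 to 18.5. Control levels were -8.74, -7.64 and -7.06 (lowest, median and highest), stress levels -8.15, -7.58 and -6.73, and exercised levels -7.55, -7.37 and -6.97. All 6 exercised rats lay above the control mean, within the range of the other groups. Fezf1, a zinc finger repressor of the same nucleus, gave -6.40, -5.90 and -5.51 in control, -6.04, -5.60 and -5.43 in stress, and -6.53, -6.06 and -5.80 in exercised rats. All exercised rats lay below the stress mean of Fezf1, and the groups overlapped. Isl1, a LIM homeodomain factor of arcuate neurons, gave -3.66, -3.49 and -3.41 in control, -3.54, -3.43 and -3.31 in stress, and -3.77, -3.63 and -3.36 in exercised rats. Isl1 was lower in 5 of 6 exercised rats than the stress mean.

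Sim1, without which paraventricular neurons do not form, gave -4.26, -3.91 and -3.68 in control rats. Stress levels of Sim1 were -4.31, -4.08 and -3.99, and exercised levels -4.46, -4.33 and -3.93. No stress rat reached the control mean, and 4 of 6 exercised rats lay below it. Of those 4, 3 lay below every stress rat too, while exercised rats 5 and 6 lay close to the control median. Otp, the homeodomain factor needed for the same neurons, ran from -9.45 to -7.36 over the arrays, mostly at background. Pou3f2, also called Brn2, gave -2.72, -2.69 and -2.61 in control, -2.88, -2.67 and -2.54 in stress, and -2.84, -2.79 and -2.64 in exercised rats at its brighter probe (A_64_P043609). Its second probe (A_44_P732644) gave medians of -5.54, -5.69 and -5.61 in the same order.

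**Figure D1:**
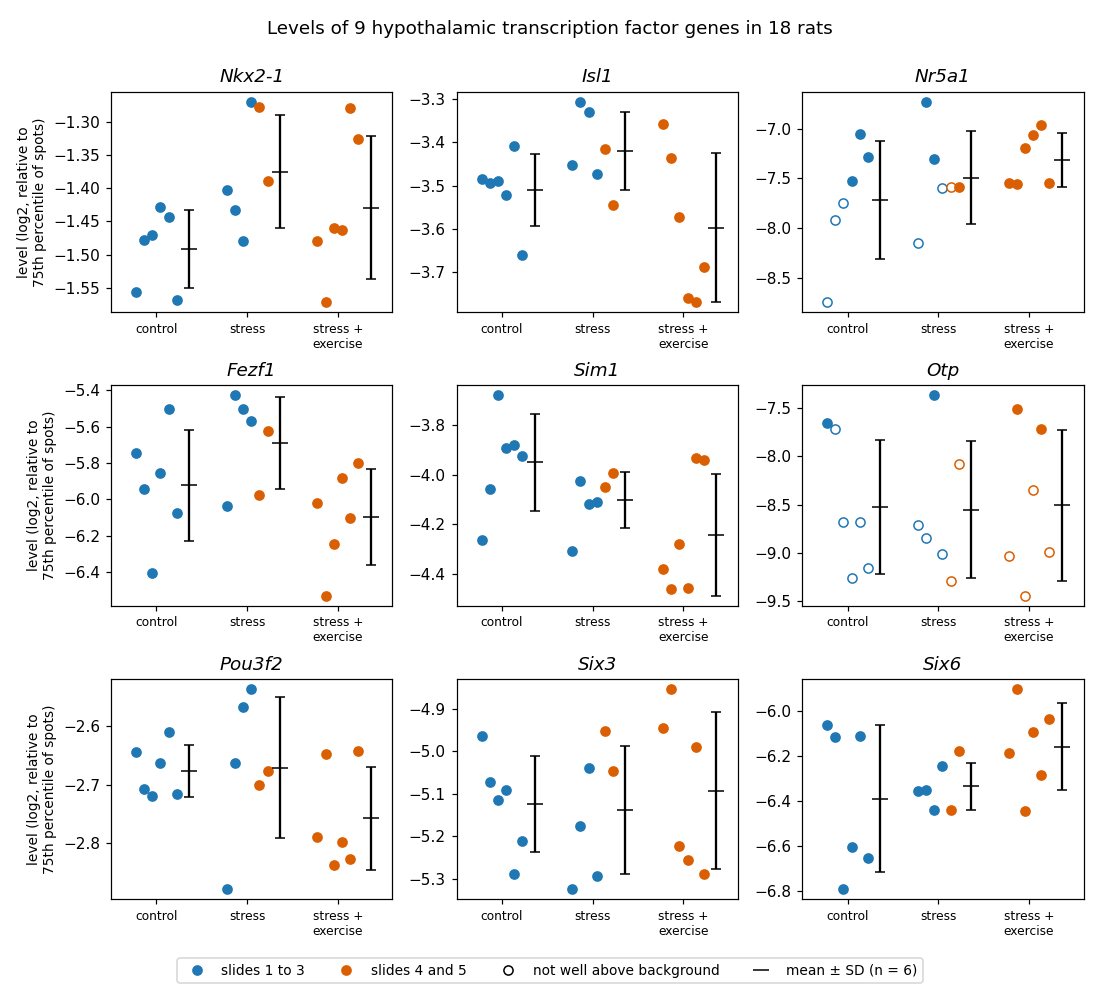
Level of each gene (log2, relative to the 75th percentile of spots of the array) in 18 rats, 1 point per rat, by group; the bar shows mean ± SD (n = 6), colour gives the slides, and open points were not well above background. Each panel has its own axis, Sim1 and Pou3f2 are shown by their brighter probe, and the groups overlap in all 9 panels.

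The first comparison asked what chronic restraint did to these genes. Of the 9 member probes, 0 passed at a limma Benjamini-Hochberg adjusted p under 0.05 over 31293 tested probes. The share over all tested probes was also 0%, so the count says nothing about the members in particular. At an unadjusted p under 0.05, 1 of the 9 passed, against 11.8% of all tested probes. That probe was Nkx2-1, 0.12 higher in stress than in control rats (95% interval 0.01 to 0.23, adjusted p = 0.406), a fold of 1.08. Sim1 differed by -0.15 (interval -0.37 to 0.08, adjusted p = 0.586). Fezf1 differed by 0.23 (interval -0.09 to 0.55) and Isl1 by 0.09 (interval -0.06 to 0.24). Six6 differed by 0.05, Six3 by -0.02 and Nr5a1 by 0.22, with an interval from -0.31 to 0.76 for this last, dim gene. The Pou3f2 probes differed by 0.01 and -0.15 and so disagreed in sign. The signs of the Six3, Six6, Nr5a1 and Pou3f2 differences turned under other processing.

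The second comparison asked what the wheel added in restrained rats. Of the 9 member probes, 0 passed, against 3.73% of all tested probes, and 2 had an unadjusted p under 0.05, against 24.3% of all tested probes. These were Fezf1 and Isl1. Fezf1 differed by -0.41 in exercised against stress rats (SE 0.15, 95% interval -0.73 to -0.08, limma adjusted p = 0.116). Isl1 differed by -0.18 (SE 0.07, interval -0.33 to -0.03, adjusted p = 0.134). The largest opposite value among genes on 18 of 18 arrays was 0.18 for Six6 (interval -0.09 to 0.44). Nkx2-1 differed by -0.05 (interval -0.16 to 0.06), Sim1 by -0.14 (interval -0.37 to 0.08), Six3 by 0.05 and Nr5a1 by 0.18. The Pou3f2 probes differed by -0.09 and 0.04. The share of all probes that passed in this comparison rested on single arrays: 1166 passed with all arrays, 4633 without stress array 5, 4181 without stress array 6, and between 1 and 352 without any other single array.

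The third comparison, of exercised with control rats, shares its arrays with both others and joins the 2 interventions. Again 0 of 9 member probes passed, against 26.1% of all tested probes, and 1 had an unadjusted p under 0.05, against 37.5%. That background moved with the slides: of 31293 probes 8153 passed, but 7 with the slide set as a covariate and 1757 with slide as a random block. Sim1 came closest, at -0.29 (SE 0.11, 95% interval -0.52 to -0.06, limma adjusted p = 0.055), or 0.818 of the control level. Six6 differed by 0.23 (interval -0.03 to 0.50, adjusted p = 0.195), and Nr5a1 by 0.40 (interval -0.13 to 0.94). The Nr5a1 value is a description only, since the probe entered through the exercised group and 3 of 6 control arrays were not well above background. Nkx2-1 differed by 0.06, Fezf1 by -0.17, Isl1 by -0.09, Six3 by 0.03, and the Pou3f2 probes by -0.08 and -0.11. The intervals of Nkx2-1 (-0.05 to 0.17) and of the brighter Pou3f2 probe (-0.19 to 0.03) were narrow, and those of Nr5a1 and Fezf1 (-0.49 to 0.15) wide.

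The Sim1 difference lay at the threshold. Its adjusted p ran from 0.021 to 0.543 over the alternatives and the fits without 1 array. In limma it passed with normexp background correction (-0.19, adjusted p = 0.021) and with only probes well above background on all arrays (adjusted p = 0.047). In limma it also passed without control array 1 (-0.35, adjusted p = 0.022), exercised array 5 (-0.35, adjusted p = 0.023) or exercised array 6 (-0.35, adjusted p = 0.024). With the slide set as a covariate it was -0.41 (adjusted p = 0.543). Markers of forebrain cholinergic and striatal neurons moved between the same groups, while 0 of 7 thalamic and 0 of 5 cortical and hippocampal genes passed. Genes of forebrain cholinergic neurons were higher, 7 of 7 past the threshold against 11% of all tested probes, with mean levels of -3.62 to -3.31 in control and -3.41 to -2.32 in exercised rats. Of 10 genes of striatal projection neurons 5 were higher, with means of -1.49 to -1.34 in control and -1.34 to -0.71 in exercised rats. With the slide set as a covariate 0 of these 17 cholinergic and striatal genes passed in limma, while the 12 that had passed kept their sign. The part of these markers in the Sim1 difference was not tested.

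**Figure D2:**
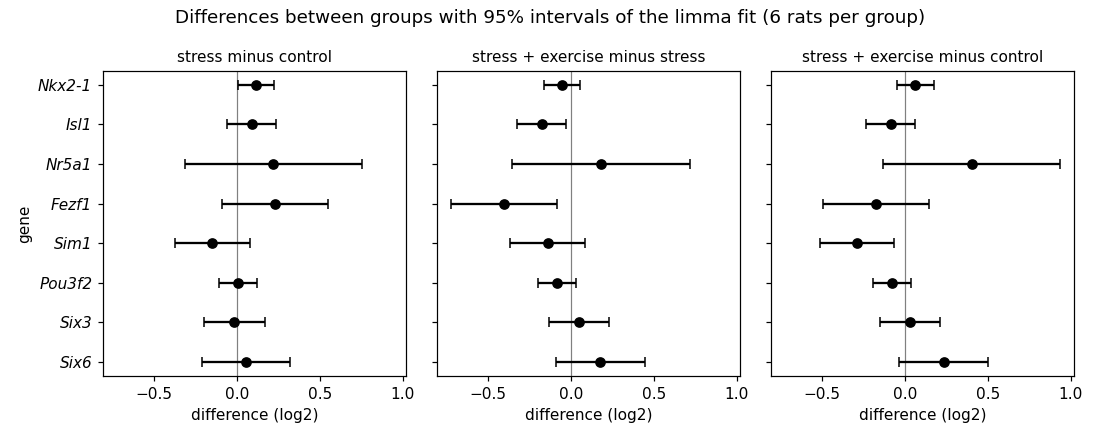
Difference between groups (log2) for the representing probe of each of the 8 tested genes, with the 95% interval of the limma fit over 18 arrays, 6 per group. Intervals of Nkx2-1 and Pou3f2 are short and those of Nr5a1 and Fezf1 long, and none of the differences passed after adjustment over all tested probes.

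A wider list of 39 other transcription factors of the hypothalamus gives the setting. Of these, 35 were tested. None passed in limma in stress against control rats. There, 10 of the 35 reached p under 0.05 before adjustment, against 11.8% of all tested probes. The median difference was 0.01, beside -0.02 over all tested probes. In exercised against stress rats 0 were higher and 1 was lower, against 1.17% and 2.56% of all tested probes: Nhlh2, a helix-loop-helix factor of feeding circuits, at -0.41 (SE 0.10, adjusted p = 0.041), and at -0.47 with the slide set as a covariate (adjusted p = 0.569). Against control rats, 4 of 35 were higher and 5 lower, beside 11% higher and 15.1% lower among all tested probes, with a median of -0.02 for the list and 0.00 for all tested probes.

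These calls moved with the slides. With the slide set as a covariate 0 of these 9 other factors passed in limma and 6 kept their sign, and with slide as a random block only Tbx3 passed (adjusted p = 0.047); both fits were added for these lists after the values were seen. Lhx8, the LIM factor of forebrain cholinergic neurons, was higher in exercised than in control rats by 0.67 (SE 0.13, adjusted p = 0.002), and by 0.43 with the slide set (95% interval -0.05 to 0.91). Its levels were -1.22 to -1.04 in control and -0.92 to -0.07 in exercised rats, with no overlap. Dlx5, a ventral forebrain factor, was higher by 0.21 (0.16 with the slide set), and Pou3f3, a relative of Pou3f2, by 0.11 (0.10 with the slide set).

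Tbx3, a T-box factor of the tuberal hypothalamus, differed by -0.96 (SE 0.22, adjusted p = 0.004), from levels of -3.05 to -2.48 in control to -4.17 to -3.41 in exercised rats. With the slide set as a covariate its sign turned, to 0.12 (interval -0.38 to 0.62). The signs of Prox1 (-0.31, then 0.14) and of Lhx6 (-0.27, then 0.04) turned as well; Lhx6 was named after its value was seen because it completes the count. Nkx2-2, a homeodomain factor at the boundary of the Nkx2-1 territory, differed by -0.47, and by -0.19 with the slide set. Nhlh2 differed by -0.41 in exercised against control rats, and by -0.50 with the slide set (interval -0.88 to -0.13, adjusted p = 0.394). Among the peptide genes that the 9 factors are known to act on, Trh differed by -0.32 (SE 0.08, adjusted p = 0.007), and by -0.18 with the slide set (adjusted p = 0.746). Oxt (0.20), Crh (0.15), Avp (0.14), Sst (-0.15) and Pomc (-0.05) did not pass.

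Co-variation asks whether rats high in one factor were high in another, a question that bears on how alike the dissected pieces were. Each level was centred on the mean of its own group and slide set, so differences between groups and slide sets do not enter. Within such a cell, slide and scan day can still differ. Control arrays 1 and 2 were on slide 1 (day 2), 3 to 6 on slide 2 (day 1). Exercised arrays 1 and 2 were on slide 4 (day 1), 3 to 6 on slide 5 (day 2). Control arrays 1 and 2 had the lowest Sim1 (-4.26 and -4.06) and Sst (3.36 in both) of their group. The lowest control Crh was also on arrays 1 and 2 (-1.47 and -1.50), while the highest control Oxt (3.05) was on array 2. Among exercised rats, array 2 (-4.46) had the lowest Sim1, and array 4 (-4.45) had lower Sim1 than array 1 (-4.38). Exercised arrays 1 and 2 had the lowest Sst (3.24 and 3.22) and Oxt (3.10 and 3.07) of their group. The lowest exercised Crh (-1.37) was on array 3 and the lowest exercised Trh (-0.51) on array 4. The part of slide and scan day in r was not tested. Pearson r over 18 arrays was then set against 100000 permutations within those cells, two-sided, with Benjamini-Hochberg adjustment over the pairs of a family. Otp was not tested and has no part in it. Of 28 pairs among the 8 tested genes, 17 were positive, 3 had an unadjusted permutation p under 0.05, and 0 passed after adjustment.

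Nkx2-1 and Sim1 had the largest r, 0.63 (permutation p = 0.017, adjusted 0.235; rho = 0.61, p = 0.016, adjusted 0.228). It was 0.29 within slides 1 to 3 and 0.87 within slides 4 and 5, 0.72 without the 2 arrays farthest from the Nkx2-1 median, and 0.51 without exercised array 5. Six3 and Isl1 followed at r = 0.53 (permutation p = 0.088, adjusted 0.451; rho = 0.44, p = 0.131), which was 0.40 without the 2 farthest arrays. Sim1 and Nr5a1 gave r = 0.51 (permutation p = 0.033, adjusted 0.310; rho = 0.54, p = 0.041), with 0.74 within slides 1 to 3, 0.19 within slides 4 and 5 and 0.61 without the 2 farthest. Sim1 and Six6 ran the opposite way, at r = -0.45 (permutation p = 0.105, adjusted 0.451; rho = -0.29, p = 0.282), and at -0.36 without the 2 farthest. Nr5a1 was well above background on only 12 of 18 arrays, so its pair with Sim1 is given as a description only. Without control array 1, r of that pair was 0.31. With that pair counted, Sim1 took part in 3 of the 4 largest values. The lowest unadjusted p of the 28 was that of Six6 and Pou3f2, named for it after its value was seen: r = 0.42 (permutation p = 0.015, adjusted 0.235; rho = 0.55, p = 0.007, adjusted 0.205), 0.24 within slides 1 to 3, 0.81 within slides 4 and 5 and 0.38 without the 2 farthest. Pou3f2, which acts with Sim1 in 1 lineage, had r = 0.13 with it.

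**Figure D3:**
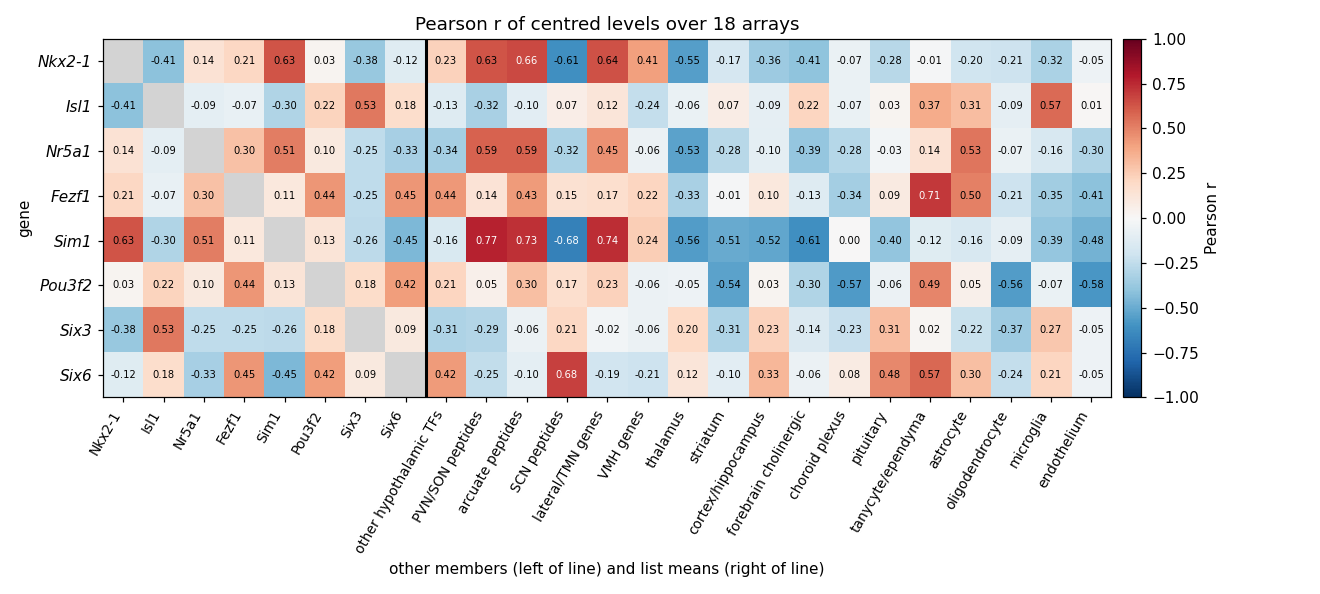
Pearson r of centred levels over 18 arrays between each of 8 genes (rows) and the other genes (left of the line) or the mean of each region, nucleus or cell list (right of the line), with red for positive and blue for negative values. The Sim1 row runs from 0.77 with paraventricular and supraoptic peptide genes to -0.68 with suprachiasmatic peptide genes.

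Against the mean levels of 17 gene lists, for nuclei, neighbouring brain regions and other cell types, 1 of 136 pairs passed. Sim1 varied with the peptide genes of the paraventricular and supraoptic nuclei (Oxt, Avp, Crh, Trh and Sst) at r = 0.77 (permutation p = 0.0003, adjusted 0.044; rho = 0.86, adjusted 0.005). The value was 0.66 within slides 1 to 3, 0.93 within slides 4 and 5 and 0.76 without the 2 farthest arrays. Leaving out 1 array gave r between 0.71 and 0.89, but the call did not hold through: no pair of the family passed without any one of control arrays 1, 2, 4 and 5, stress arrays 2 and 4, or any exercised array.

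Sim1 also had r = 0.74 with the lateral hypothalamic list (Hcrt, Pmch and Hdc; permutation adjusted p = 0.068) and 0.73 with the arcuate list (adjusted p = 0.056). By Spearman's rho both of these passed (0.80, adjusted 0.011, and 0.88, adjusted 0.004), as did Fezf1 with the list of tanycytes and ependyma (rho 0.77, adjusted 0.025; r = 0.71, adjusted 0.116). Sim1 ran against the suprachiasmatic genes Vip and Grp at r = -0.68 (adjusted p = 0.070), a list with only 2 tested genes. It ran against forebrain cholinergic genes at -0.61, thalamic genes at -0.56, cortical and hippocampal genes at -0.52 and striatal genes at -0.51. Nkx2-1 resembled Sim1 in its signs, with 0.66 for arcuate, 0.64 for lateral, 0.63 for paraventricular and supraoptic, -0.61 for suprachiasmatic and -0.55 for thalamic genes. Six6 went the other way on the suprachiasmatic genes, at 0.68 (adjusted p = 0.185). Thalamic list means ranged from -3.79 to -1.93 over the 18 rats, and paraventricular and supraoptic means from 1.83 to 2.39.

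These values stand on a broad background. Sim1 had an absolute r over 0.5 with 20.6% of 12979 named genes, Nkx2-1 with 16.8%, Pou3f2 with 5.49% and Fezf1 with 4.84%. The share of probes well above background on an array, a measure of array sensitivity, had r = -0.43 with Sim1 and 0.46 with Six6. It had r = -0.47 with the paraventricular and supraoptic list, -0.52 with the lateral list and -0.33 with the arcuate list. With the suprachiasmatic, thalamic and cortical and hippocampal lists r was 0.61, 0.53 and 0.57. In each of these 6 lists its sign was opposite to that of Sim1 with the list. With the forebrain cholinergic and striatal lists, which Sim1 also ran against, this measure had r of only 0.15 and 0.08. Its part in the values above was not tested.

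Oxt, Avp, Crh, Trh and Sst, whose mean is the paraventricular and supraoptic list, and Pomc were set singly against the 8 factors. This family of 48 pairs was added after the list values were seen, and 6 passed. Sim1 held 4 of them: Sst at r = 0.79 (permutation adjusted p = 0.009), Crh at 0.74 (adjusted p = 0.023), Trh at 0.72 (adjusted p = 0.030) and Oxt at 0.64 (adjusted p = 0.023). For the same genes Spearman's rho was 0.86, 0.73, 0.79 and 0.75, all past adjustment, and r was positive within both slide sets for each. Without the 2 farthest arrays, r was 0.76, 0.77, 0.72 and 0.59. Against the background, Sst stood at the 99.5th percentile of all named genes for Sim1, Crh at the 98.7th, Trh at the 98.4th and Oxt at the 95.9th. Avp, made in many of the same nuclei, had r = 0.24 with Sim1. The 4 Sim1 pairs break down the list value given above on the same arrays and are no separate support for it.

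Crh varied with Nkx2-1 at r = 0.70 (permutation adjusted p = 0.041; rho = 0.59, adjusted 0.114), and at 0.64 without the 2 farthest arrays. Pomc, the melanocortin precursor gene of the arcuate nucleus, had r = 0.70 with Nr5a1 (permutation adjusted p = 0.041; rho = 0.65, adjusted 0.098), and 0.67 without the 2 farthest. Nr5a1 was not well above background on 6 of 18 arrays, where its values have no firm order, so this pair is given as a description and not as support for a relation. Six3 and Avp gave r = -0.61 (permutation adjusted p = 0.076) and rho = -0.73 (adjusted 0.021). Nkx2-1 and Oxt also passed by rho, at 0.72 (permutation adjusted p = 0.023), with r = 0.60 (adjusted p = 0.114). That r was 0.34 within slides 1 to 3 and 0.95 within slides 4 and 5.

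**Figure D4:**
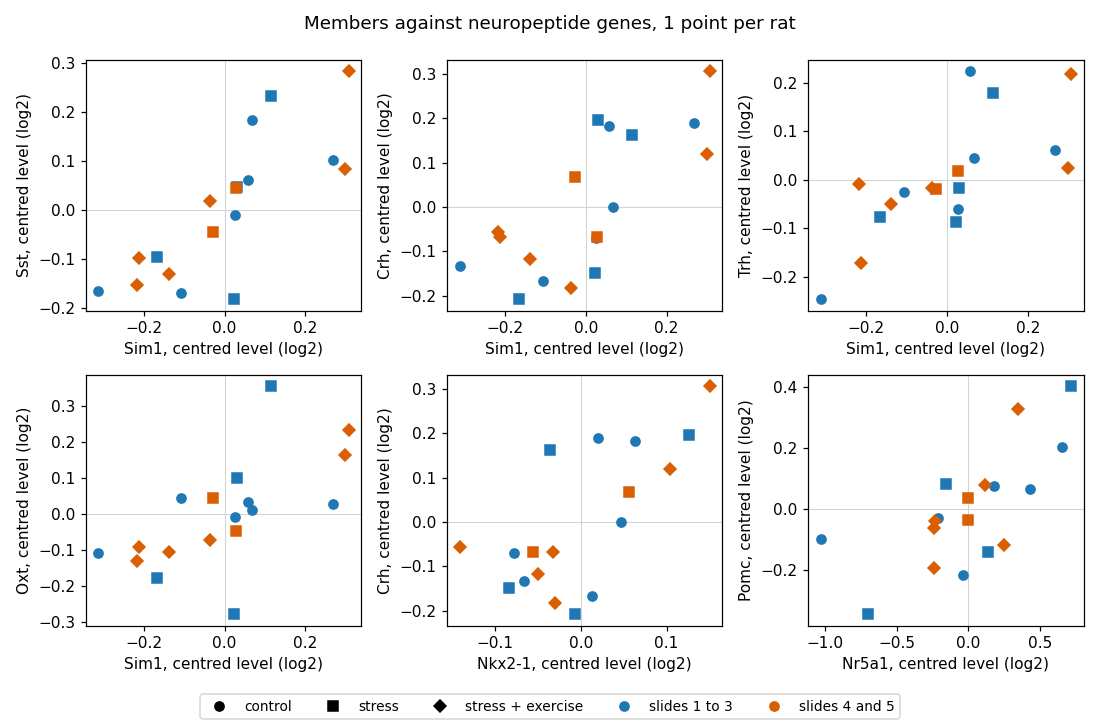
Centred levels (log2) of 3 of the factors (horizontal axes) against neuropeptide genes (vertical axes), 1 point per rat; shape gives the group and colour the slides. In the 4 Sim1 panels exercised rats 5 and 6 lie farthest right, and r is positive in both slide sets.

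The rats at the ends of these relations can be named. Exercised rats 5 and 6 had the highest Sim1 of their group, at -3.93 and -3.94, and the highest Nkx2-1, at -1.28 and -1.33. The same rats had the highest Crh of the group (-0.88 and -1.07), the highest Oxt (3.43 and 3.37) and the highest Sst (3.66 and 3.46). Among control rats, the rat with the lowest Sim1 (-4.26, control 1) also had the lowest Trh (-0.27) and the lowest Oxt (2.90). Among stress rats, stress 2 had the highest Oxt (3.72), Sst (3.91) and Trh (0.17), and stress 1 the lowest Sim1 (-4.31) and the lowest Crh (-1.20). The highest Sim1 of the stress rats (-3.99, stress 6) went with a Crh of -1.17, near the lowest of the group, an Oxt (3.30) and Sst (3.52) below those of 3 of the other rats, and a Trh (-0.12) below those of 4 of the other rats.

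The promoters of the genes in the 6 peptide pairs that passed are shown, as far as the table used here holds them; Crh was not searched. Each is the 250 bases before the annotated start in the RefSeq table of rat assembly GRCr8, printed 5′ to 3′ along the gene: Sim1 chr20:55410327-55410576 on the plus strand, Nkx2-1 chr6:79734868-79735117 on the minus strand, Nr5a1 chr3:42896047-42896296 on the minus strand, Oxt chr3:138235504-138235753 on the plus strand, Trh chr4:126301763-126302012 on the minus strand, Sst chr11:90461296-90461545 on the plus strand and Pomc chr6:32659103-32659352 on the plus strand. Capitals mark matches, on either strand, to ACGTG (a core bound by Sim1 with its partner Arnt2), CTCAAG (a core bound by Nkx2-1) or AAGGTCA (a site of Nr5a1 and related nuclear receptors), and a window without capitals holds none of them.
Sim1: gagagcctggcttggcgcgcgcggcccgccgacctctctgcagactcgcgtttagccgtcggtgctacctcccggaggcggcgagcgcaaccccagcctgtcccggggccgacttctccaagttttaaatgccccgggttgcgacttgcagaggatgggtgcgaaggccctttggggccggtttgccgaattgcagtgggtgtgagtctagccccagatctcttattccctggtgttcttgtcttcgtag
Nkx2-1: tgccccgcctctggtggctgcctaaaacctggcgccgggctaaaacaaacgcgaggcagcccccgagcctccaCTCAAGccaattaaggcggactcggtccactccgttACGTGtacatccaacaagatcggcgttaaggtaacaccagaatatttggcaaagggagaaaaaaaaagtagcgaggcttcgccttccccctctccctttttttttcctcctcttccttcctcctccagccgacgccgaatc
Nr5a1: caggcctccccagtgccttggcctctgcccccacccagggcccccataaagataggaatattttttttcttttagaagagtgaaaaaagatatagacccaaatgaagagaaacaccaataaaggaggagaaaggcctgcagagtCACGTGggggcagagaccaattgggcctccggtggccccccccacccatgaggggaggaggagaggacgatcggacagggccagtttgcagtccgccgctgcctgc
Oxt: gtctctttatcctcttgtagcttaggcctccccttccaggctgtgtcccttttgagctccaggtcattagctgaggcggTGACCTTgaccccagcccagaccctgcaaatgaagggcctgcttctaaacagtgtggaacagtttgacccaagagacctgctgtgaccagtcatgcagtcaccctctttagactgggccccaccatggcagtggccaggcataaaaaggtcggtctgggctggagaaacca
Trh: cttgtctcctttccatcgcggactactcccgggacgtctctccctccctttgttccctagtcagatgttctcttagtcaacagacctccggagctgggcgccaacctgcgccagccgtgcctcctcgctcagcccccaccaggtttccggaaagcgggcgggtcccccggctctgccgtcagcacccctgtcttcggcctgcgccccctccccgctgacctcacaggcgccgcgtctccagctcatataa
Sst: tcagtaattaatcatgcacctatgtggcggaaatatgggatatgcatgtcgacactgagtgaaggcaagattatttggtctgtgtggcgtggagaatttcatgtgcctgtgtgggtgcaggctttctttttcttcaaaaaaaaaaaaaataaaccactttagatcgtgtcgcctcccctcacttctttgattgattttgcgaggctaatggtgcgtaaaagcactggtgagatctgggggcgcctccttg
Pomc: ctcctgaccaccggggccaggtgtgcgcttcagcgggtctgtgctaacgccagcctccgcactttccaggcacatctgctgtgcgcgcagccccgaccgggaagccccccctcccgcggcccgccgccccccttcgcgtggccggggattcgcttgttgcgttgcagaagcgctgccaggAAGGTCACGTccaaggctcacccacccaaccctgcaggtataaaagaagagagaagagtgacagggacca

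ACGTG was found in the promoters of Nkx2-1 and Nr5a1 among the 9 factors, and in those of Avp and Pomc among the 5 peptide genes searched. In Nr5a1 a match on each strand, shifted by 1 base, forms CACGTG. It was present in 16.6% of 33469 rat promoters of this length. CTCAAG lay in the Nkx2-1 and Pou3f2 windows and in 13.3% of all promoters, and the Nkx2-1 window thus holds the core of its own product. AAGGTCA lay in the windows of Oxt and Pomc, in 0 of the 9 factors and in 3.99% of all promoters, and in Pomc it overlaps the ACGTG match. The octamer ATGCAAAT of POU factors was in 0 of 9 windows and 1.56% of all promoters. A match is a string of letters in this window and is not a measured binding site.

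For each factor, the 3 of 12979 named genes whose centred levels followed it most closely over 18 arrays are given as a description. For Sim1 they were Suv39h1, a histone methyltransferase gene, F8a1 and Lig1, a DNA ligase gene, with r from 0.87 to 0.89. For Nkx2-1 they were Mpv17, Ttc39c and Tmem53, with r from 0.85 to 0.87. Six3 was closest to Tacc1, Slc25a33 and Orai1, and Six6 to Dennd2d, Nuak2 and St14. Fezf1 was closest to Mfsd1, Fbxw17 and Cmklr1, and Nr5a1 to Stk40, Lgals3bp and Pclo. Isl1 was closest to Lss, Pycr3 and the microglial receptor gene Csf1r, and Pou3f2 to Cfap418, Traf4 and Traip. Between the slide sets these values differed most for Nr5a1 and Pclo, at 0.93 in slides 1 to 3 and 0.06 in slides 4 and 5.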

How the data were processed

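RNA was measured on 18 one-colour Agilent rat arrays, 1 rat each, with Cy3-labelled cRNA. Per the file headers, the intensity used is the processed signal, already background-subtracted and detrended by Agilent Feature Extraction; headers name version 12.1.0.3 and the submitters' processing notes 9.1. Per the labels' protocols, RNA integrity numbers were above 7, and RNA input is given as 100 ng in one text and 200 ng in another. The authors' deposited matrix intensity was this signal times 1 constant per array.

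Control spots and those marked as outliers (297 to 580 on each array) were dropped, and 0 spots were saturated. To obtain levels, the 75th percentile over spots of each array was subtracted from its processed signals on the log2 scale; this percentile was 1963 to 2422, against 423 to 528 over probes, an alternative added after seeing the files. Probes were named by accession through a RefSeq table of GRCr8 (21220 of 45598 probes); the arrays were designed on another build, so no probe positions are given. A probe was tested if well above background on at least 5 of 6 arrays of at least 1 group, a filter that the written design did not hold, taken from earlier work on these data. This kept 31293 probes, and the brightest tested probe represents a gene. Groups were compared with limma 3.58.1 in R 4.3.3 (lmFit and eBayes on 18 arrays, group as the only term, 15 residual degrees of freedom), with Benjamini-Hochberg adjustment over tested probes. The fit and the permutation tests (numpy 2.4.6, scipy 1.17.1) were tested on simulated data.

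Genes named are every member probe, the top 3 genes by r for each member, up to 4 passing genes per direction of each list or else the 1 with the smallest p, and Oxt, Avp, Crh, Trh, Sst and Pomc; among pairs of members, those that passed or else the 4 with the largest absolute r. Only part of the genes under this rule are printed; 1 of the factors that rose is not reported here. Members, lists and rules were chosen with earlier results of these data known. The labels give no pairing of rats by number, so none was used. Same-numbered arrays of different groups had correlations of their deviations between -0.25 and 0.19. Arrays with different numbers were not compared, so these values do not decide whether numbers pair rats.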

Additional observations from a re-analysis of the deposited data

How the results depend on the processing

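No member difference passed in any alternative except Sim1 and Six6 in exercised against control rats, where 1 member passed under quantile normalization (Six6, 0.36, adjusted p = 0.019), normexp, the stricter filter and the replicate block (all Sim1), and 0 to 1 without 1 array. Apart from the fits without 1 array, 17 of 325 member values turned sign: in stress against control rats Six3 (0.0025 unscaled, 0.047 quantile, 0.022 normexp, 0.023 with scan day), Nr5a1 (-0.021 normexp), Six6 (-0.021 normexp, -0.00999 with slide as a random block) and Pou3f2 (-0.0067 with slide as a random block, -0.072 as the mean of both probes); in exercised against stress rats Six3 (-0.0075 unscaled, -0.094 with the slide set, -0.094 within slides 4 and 5); in exercised against control rats Six3 (-0.0050 unscaled, -0.18 with the slide set), Pou3f2 (0.019 normexp), Isl1 (0.0028 with the slide set) and Nkx2-1 (-0.0019 with the slide set). Without 1 array, stress against control ranged from -0.053 to 0.022 for Six3, -0.021 to 0.047 for Pou3f2 and -0.026 to 0.12 for Six6, and Six3 from -0.0017 to 0.085 against stress and -0.017 to 0.070 against control rats.

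Probes that passed between stress and control rats numbered 0, but 2 with quantile normalization, 467 with scan day as a block and 1 with the slide set. Between exercised and stress rats 1166 became 2 without a filter, 2 with the replicate block, 3110 with scan day, 0 with slide as a random block, 5 with the slide set, 3 within slides 4 and 5, and 1 to 4633 without 1 array. Between exercised and control rats 8153 became 5171 unscaled, 1757 with slide as a random block and 7 with the slide set. The replicate block, for numbers to which the labels give no pairing, gave Sim1 -0.29 (adjusted p = 0.032 in limma) and changed no other member call. Pairs of members that passed numbered 3 unscaled and 0 to 1 without 1 array. Pairs with lists numbered 3 centred on groups only, 2 with quantile normalization, 14 unscaled, 2 with the percentile over probes, 0 with normexp, 0 within slides 1 to 3, 0 within slides 4 and 5, and 0 to 3 without 1 array. The cause was not tested, except that a split by slides leaves fewer arrays: in slides 4 and 5 the exact test has 1440 arrangements and no single pair of 136 could pass. Normexp and the percentile over probes were chosen after seeing the data. Levels of Nr5a1 and Otp are limited by signal over background.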

Other observations

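The first principal component of the centred levels, added after the values were seen, held 24.9% of their variance. Its r was 0.53 with Sim1, 0.53 with Nr5a1 and -0.60 with Six6, and -0.82 with the list of other hypothalamic transcription factors, -0.69 with the suprachiasmatic genes and -0.61 with the thalamic genes. With this component regressed out of both sides, r of Sim1 was 0.70 with the paraventricular and supraoptic list, 0.72 with Sst, 0.65 with Crh, 0.60 with Trh and 0.59 with Oxt. Nkx2-1 with Crh was 0.73. Nr5a1 with Pomc was 0.66, a description only, since Nr5a1 was not well above background on every array. The negative values of Sim1 with the suprachiasmatic list and the lists of other brain regions became weaker. They went from -0.68 to -0.50 with suprachiasmatic, -0.56 to -0.34 with thalamic and -0.52 to -0.34 with cortical and hippocampal genes. With forebrain cholinergic genes the change was from -0.61 to -0.56, and with striatal genes from -0.51 to -0.48. Other negative values became stronger, from -0.39 to -0.53 with microglial, -0.40 to -0.49 with pituitary and -0.16 to -0.17 with astrocyte genes. Sim1 with the other hypothalamic transcription factors was -0.16 before and 0.59 after, so the sign of that value turned.

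Among the other cell lists, 3 of 7 oligodendrocyte genes passed as higher in exercised than in control rats, against 11% of all tested probes: Mag by 0.36, Cnp by 0.22 and Mog by 0.22, all myelin genes. With the slide set as a covariate 0 passed in limma, and the values were 0.09, 0.08 and 0.03. Of 7 microglial genes 1 passed as higher and 2 as lower, and of 7 astrocyte genes 1 as lower, against 15.1% of all tested probes, while the median difference of the astrocyte list was 0.06. The arcuate peptide gene Npy, 1 of 7 in its list, was higher by 0.32, and by 0.45 with the slide set (95% interval 0.12 to 0.78, adjusted p = 0.393).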
